A study of Homo sapiens with 13 samples.

Results

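Coding exons are the parts of a gene whose bases are read into protein, and they are seldom thought of as regulatory DNA. A sequence can nevertheless be exonic in one transcript and bind transcription factors in chromatin, and such elements have been called exonic enhancers. Their bases are constrained by the genetic code and are richer in G and C than the introns around them. During mitosis chromosomes condense and transcription falls, and open regulatory sites differ in how far they stay open. The peaks described here are accessible regions whose centre lies in a coding sequence (CDS) interval of a protein-coding gene and whose nearest edge is more than 2 kb from the transcription start site (TSS) of any transcript. Of 129347 peaks in all, 96278 lay more than 2 kb from a TSS, and 1173 of these had their centre in CDS, 0.907% of all peaks. They fell in 1012 genes. The peaks they are compared with are 6561 intronic peaks of the same genes, also more than 2 kb from a TSS.

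Chromatin accessibility was measured by ATAC-seq, which uses a transposase to cut and tag open DNA, in the human glioblastoma cell line T98G. Of the 3 G1 libraries, each came from cells starved of serum for 72 h. The 3 M-phase libraries came from cells starved for 48 h and then released for 36 h into medium with nocodazole, which depolymerizes microtubules and arrests cells in mitosis, and collected by shake-off. Release into serum cannot be told apart from the phase. The sample titles name HiSeq and NextSeq runs for M-phase and no platform for G1. A platform effect cannot be told apart from the phase either. Values are reads per peak, reduced by the authors to the depth of the smallest library, and are called scaled counts here. Reads in peaks, recovered from the scaled values, numbered 4333935 to 5365024 in the G1 libraries and 12470564 to 14202790 in the M-phase libraries, so the G1 values carry the larger counting error. The change of a peak is the mean of log2(scaled count + 8) in M-phase minus that in G1, which understates the change of low peaks. A lower value can mean fewer cells in which the site is open or a lower signal per cell, and these cannot be told apart. The labels do not say whether replicates were separate cultures, so p-values measure the spread between these libraries only.

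The centre rule did not select regions that are coding throughout. Of the 1173 peaks, 547 lay wholly in CDS (46.6%), 626 crossed the end of a CDS interval, and 1017 had at least 50% of their bases in CDS. The median peak had 95.9% of its bases in CDS and was 208 bp wide, beside a median of 217 bp for the intronic peaks. The CDS interval that held the centre was an internal coding exon in 690 cases, the last coding exon in 365, the single coding exon in 82 and the first in 36. For 1131 peaks the interval belonged to the canonical transcript, and for 21 peaks the centre lay in the CDS of more than 1 gene. At the 2 kb limit, 24 peaks lay within 2100 bp of a TSS, with a median change of -0.02, and 12 peaks with their centre in CDS lay just outside the rule, between 1900 and 2000 bp from a TSS, with a median change of 0.05.

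The reference sequence (GRCh37, the assembly of hg19) at the centre of 6 of these peaks is printed for orientation, 3 that fell and 3 that rose in M-phase. Each is given 5′ to 3′ on the strand of its gene, with CDS bases in capitals and introns, or bases after the coding sequence, in lower case.
FOCAD: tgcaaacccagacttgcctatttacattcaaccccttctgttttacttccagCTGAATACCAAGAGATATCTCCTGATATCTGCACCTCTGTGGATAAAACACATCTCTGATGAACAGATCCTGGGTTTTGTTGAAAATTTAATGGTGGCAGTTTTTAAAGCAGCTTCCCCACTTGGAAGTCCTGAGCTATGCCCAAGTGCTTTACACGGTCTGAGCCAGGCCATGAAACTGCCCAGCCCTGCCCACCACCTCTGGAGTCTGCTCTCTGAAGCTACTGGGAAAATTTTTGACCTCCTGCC
LRRC7: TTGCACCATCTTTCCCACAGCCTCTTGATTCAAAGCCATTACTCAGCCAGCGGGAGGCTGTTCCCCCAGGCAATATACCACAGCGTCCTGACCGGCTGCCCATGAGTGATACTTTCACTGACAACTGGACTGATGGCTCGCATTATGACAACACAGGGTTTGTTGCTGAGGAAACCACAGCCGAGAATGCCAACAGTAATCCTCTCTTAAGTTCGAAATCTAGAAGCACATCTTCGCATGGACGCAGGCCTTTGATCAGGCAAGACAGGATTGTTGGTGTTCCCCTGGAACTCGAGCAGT
FNIP1: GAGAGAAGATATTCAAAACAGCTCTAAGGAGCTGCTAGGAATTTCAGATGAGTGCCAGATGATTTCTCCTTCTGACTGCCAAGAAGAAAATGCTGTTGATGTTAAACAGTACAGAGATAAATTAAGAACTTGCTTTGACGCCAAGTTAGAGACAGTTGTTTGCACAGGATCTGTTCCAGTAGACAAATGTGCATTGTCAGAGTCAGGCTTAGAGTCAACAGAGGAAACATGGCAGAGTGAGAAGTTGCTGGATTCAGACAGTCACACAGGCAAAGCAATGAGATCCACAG
SOX9: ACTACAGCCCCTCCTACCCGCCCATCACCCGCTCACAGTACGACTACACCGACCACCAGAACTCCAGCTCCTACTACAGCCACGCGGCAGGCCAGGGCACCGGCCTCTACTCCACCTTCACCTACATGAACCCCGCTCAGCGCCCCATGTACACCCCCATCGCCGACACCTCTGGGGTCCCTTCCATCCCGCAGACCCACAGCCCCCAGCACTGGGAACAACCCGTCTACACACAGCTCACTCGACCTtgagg
ITGB5: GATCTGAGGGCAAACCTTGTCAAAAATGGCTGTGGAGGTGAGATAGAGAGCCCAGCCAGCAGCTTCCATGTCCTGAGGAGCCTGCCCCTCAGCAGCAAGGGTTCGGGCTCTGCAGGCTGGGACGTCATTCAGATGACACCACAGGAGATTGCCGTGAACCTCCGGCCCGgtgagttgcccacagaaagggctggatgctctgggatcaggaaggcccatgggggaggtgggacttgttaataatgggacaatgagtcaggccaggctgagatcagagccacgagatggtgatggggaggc
CSF2RB: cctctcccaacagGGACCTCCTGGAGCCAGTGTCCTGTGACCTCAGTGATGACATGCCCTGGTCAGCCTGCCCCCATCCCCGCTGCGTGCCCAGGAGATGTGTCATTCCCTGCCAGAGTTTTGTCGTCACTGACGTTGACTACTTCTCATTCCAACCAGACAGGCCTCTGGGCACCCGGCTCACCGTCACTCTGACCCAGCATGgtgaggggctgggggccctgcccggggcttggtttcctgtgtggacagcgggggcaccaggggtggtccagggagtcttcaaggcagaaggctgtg
The FOCAD window (chr9:20981373-20981672, forward strand) runs from an intron into the coding exon and has 248 coding bases of 300. The LRRC7 window (chr1:70503798-70504097, forward strand) and the FNIP1 window (chr5:131007961-131008250, reverse strand) are coding throughout. The SOX9 window (chr17:70120278-70120530, forward strand) is the whole peak, with the last 248 coding bases of the gene followed by 5 bases that begin with the stop codon. It is rich in G and C (63.6%) and holds 14 CpG dinucleotides, while the FNIP1 window holds 1 and has 42.4% G and C. The ITGB5 window (chr3:124577958-124578257, reverse strand) crosses the end of an exon after 169 coding bases. The CSF2RB window (chr22:37322016-37322315, forward strand) contains an entire coding exon of 191 bases between a pair of introns.

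Few coding-exon peaks differed between G1 and M-phase. Of 1173 peaks, 613 passed the filter on low values and were tested, and 560 were not. With limma and a Benjamini-Hochberg adjusted p under 0.05 over all 73121 peaks tested, 25 coding-exon peaks were higher in M-phase and 41 were lower, 10.8% of those tested. The background over all peaks was 27.3%, with 14.3% higher and 13.1% lower. Over all tested peaks more than 2 kb from a TSS it was 21.7%, with 6.17% higher and 15.5% lower. Of 3271 intronic peaks tested, 140 were higher and 472 lower, 18.7% in all. Falls made up 62.1% of the calls among coding-exon peaks and 77.1% among intronic peaks. These shares are descriptions, since peaks are not replicates of a phase. Under a trimmed mean of M values (TMM) scaling 18 coding-exon peaks were higher and 66 lower, and with every library scaled to the same total in peaks 12 were higher and 107 lower, so the split of higher against lower depended on the scaling.

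Because a peak with few reads is seldom called, the shares were read again at like levels. Among coding-exon peaks with a mean scaled count of 10 to under 20, 8 were higher and 14 lower of 337 tested (6.53%), beside 11.8% of intronic peaks at that level. From 20 to under 50, 8 were higher and 16 lower of 169 (14.2%), beside 21.7% of intronic peaks. At 50 and above, 8 were higher and 9 lower of 63 (26.98%), beside 38.1% of intronic peaks and 50.9% of all peaks. The coding-exon share was thus the lowest of the 3 classes at each of the 3 levels. At the highest level the rises that dominate all peaks, 8149 against 2333 falls, were not matched in the coding exons, where rises and falls were nearly equal in number, nor in the intronic peaks, with 45 rises and 102 falls. All peaks at that level lie mostly at start sites, with a median TSS distance of 0 bp and 58.9% in CpG islands.

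**Figure D1:**
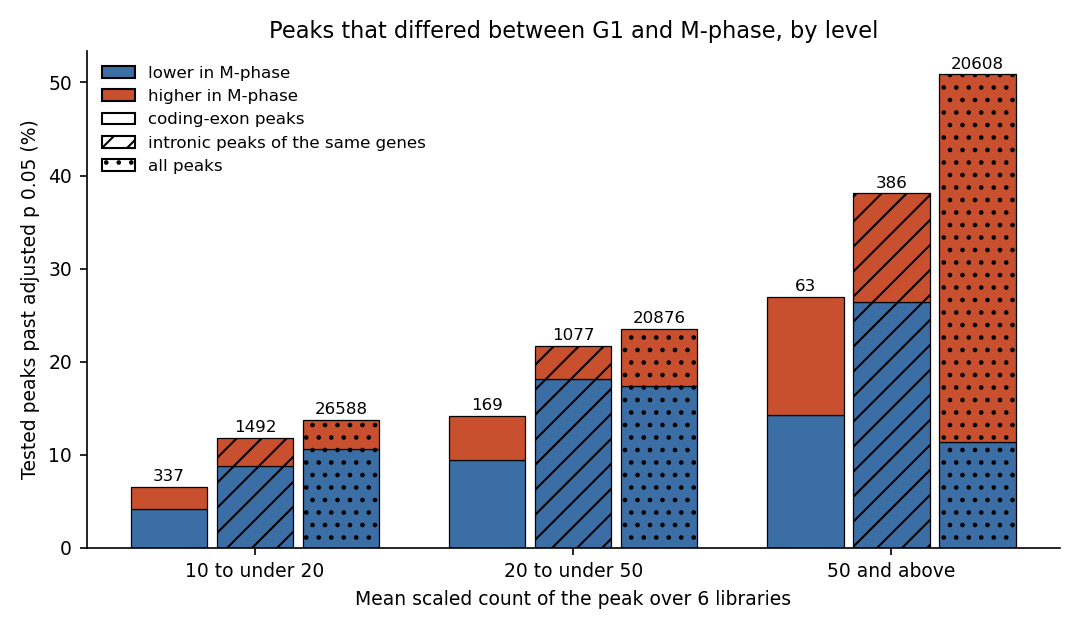
Percent of tested peaks past an adjusted p of 0.05 (y axis), stacked as lower (blue) and higher (red) in M-phase, for 3 ranges of mean scaled count (x axis) and for coding-exon peaks, intronic peaks of the same genes and all peaks (hatching). The number above each bar is the number of peaks tested, and the coding-exon bar is the lowest in every range, at 6.53%, 14.2% and 26.98%.

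Most coding-exon peaks stayed within 1.5-fold between the phase means. This held for 88.0% of all 1173 peaks, tested or not, beside 83.1% of intronic peaks and 78.6% of all peaks. Between single libraries, 76.8% to 85.7% of coding-exon peaks lay within 1.5-fold in the 6 pairs of the same phase, and 69.8% to 77.3% in the 9 pairs of different phases. The ranges overlapped at their ends, between 76.8% and 77.3%. The share depends on the pseudocount: with 1 in place of 8, 36.2% of coding-exon peaks were past 1.5-fold, in place of 12.02%. The quartiles of the change were -0.23 and 0.24 for coding-exon peaks and -0.26 and 0.28 for intronic peaks.

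**Figure D2:**
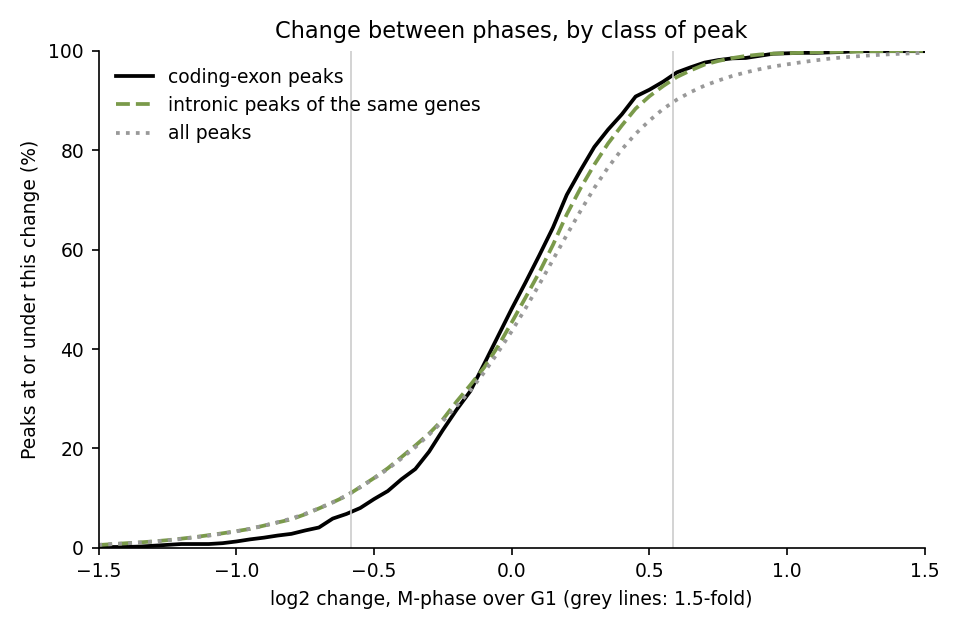
Cumulative percent of peaks (y axis) at or under a log2 change of M-phase over G1 (x axis) for 1173 coding-exon peaks, 6561 intronic peaks of the same genes and all 129347 peaks, with grey lines at 1.5-fold. The coding-exon curve is the steepest of the 3, with 88.0% of its peaks between the grey lines beside 83.1% and 78.6%.

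The median level of all coding-exon peaks overlapped between the phases, while that of the better covered ones was lower in M-phase. The median log2(scaled count + 8) over the 1173 peaks was 4.08, 4.19 and 4.09 in G1 replicates 1, 2 and 3, and 4.16, 4.13 and 4.14 in M-phase replicates 1, 2 and 3. The phases overlapped (two-sided exact permutation test, p = 0.5). The median change over peaks was 0.02, beside 0.04 for the intronic peaks and 0.07 for all peaks, and it was -0.06 under TMM and -0.18 with equal totals, where the median of all peaks was 0.00 and -0.12. Many of these peaks have counts near the pseudocount. For the 232 whose scaled counts averaged 20 or more, the median was 5.39, 5.48 and 5.43 in G1 and 5.31, 5.25 and 5.29 in M-phase, lower in all 3 M-phase libraries by 0.15 in the mean (exact permutation test, p = 0.1, the smallest possible). Their median change was -0.11, beside -0.14 for the 1463 intronic peaks at that level, and it was -0.22 with TMM, -0.40 with equal totals and -0.03 with a loess normalization, a scaling that removes any trend of change with level. As a share of all scaled counts in peaks, the coding-exon peaks together held 0.441%, 0.496% and 0.389% in the G1 libraries and 0.358%, 0.334% and 0.333% in the M-phase libraries. Every M-phase library was lower than every G1 library in this share (p = 0.1, the smallest p of the exact permutation test with 3 against 3), while the sum itself, 19867 ± 887 in G1 and 19708 ± 233 in M-phase (SD, n = 3), overlapped.

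Set against the intronic peaks of the same genes, the difference between the pooled class medians was not larger than the spread between libraries. The median within genes did not overlap between the phases, though its shift was small. With 3 against 3 libraries the exact test cannot give a p under 0.1. The coding-exon median minus the intronic median was 0, 0.06 and 0 in the G1 libraries and 0.07, 0.03 and 0.04 in the M-phase libraries on the log2 scale. The mean difference between phases was 0.03 (two-sided exact permutation test, p = 0.3), and the sign turned under 4 of the alternatives. The sign also depended on the measure: the median change over coding-exon peaks minus that over intronic peaks was -0.03. For 669 genes with at least 1 peak of each kind, the median over genes of exon minus intron was -0.09, -0.07 and -0.14 in G1 and -0.04, -0.05 and -0.07 in M-phase. Here every M-phase library lay above every G1 library (exact p = 0.1, the smallest possible), by 0.05 in the mean, but the median over genes of the difference in change was only 0.0027.

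The falls with the largest change were at genes of varied function. FOCAD, which encodes the focal adhesion protein focadhesin, held the largest of all, at chr9:20981133-20981912 around exon 38 of its transcript. Its scaled counts were 110.4, 82.0 and 128 in the G1 libraries and 25.5, 15.7 and 16.8 in the M-phase libraries. The lowest G1 library was thus more than 3 times the highest M-phase library. The change was -2.07 (SE 0.25, limma adjusted p = 8.74e-11). Only 33.5% of this peak was coding, since it also covers intron on both sides of the 261-bp exon (chr9:20981425-20981685). The 1 tested intronic peak of FOCAD had a change of -1.17, and the difference of -0.90 between them missed the threshold (adjusted p = 0.059).

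ULK4, a pseudokinase of the Unc-51-like family, had a peak at chr3:41722991-41723288 with scaled counts of 25.8, 41.4 and 76 in G1 and 6.2, 9.1 and 18.8 in M-phase. The phases did not overlap, which the choice of named falls and rises required, and the G1 libraries spread widely. The change was -1.48 (SE 0.29, adjusted p = 3.88e-05). VWDE, which encodes a protein with a von Willebrand factor D domain, went from 43.7, 23.4 and 55 to 7.4, 10.7 and 14 at its exon 3 (chr7:12428753-12429160), a change of -1.34 (SE 0.29, adjusted p = 0.000143). DHRS9, a retinol dehydrogenase, went from 101.4, 55.5 and 120 to 35.4, 24.3 and 33.2 at its last coding exon (chr2:169951831-169952589), a change of -1.31 (SE 0.25, adjusted p = 1.35e-05). At DHRS9 the mean change of 2 intronic peaks was -1.21. The exon took up 29.1% of the DHRS9 peak, so most of that peak is intron or sequence past the coding part.

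LRRC7 encodes densin, a scaffold protein of synapses. Its peak at the start of a 1681-bp coding exon (chr1:70503790-70504105) was nearly all coding (98.1%), and its scaled counts were 44.7, 49.2 and 73 in G1 and 14.8, 21.4 and 18.8 in M-phase. All M-phase libraries lay at less than any G1 library, as the choice of named falls required. The change was -1.25 (SE 0.27, adjusted p = 0.000107). The same exon held another pair of coding-exon peaks that were too low to be tested. The one centred 747 bp downstream had 6, 2.3 and 2 in G1 and 11.1, 7.8 and 8.7 in M-phase, and the one centred 1204 bp downstream had 6, 10.9 and 6 and then 4.9, 5.8 and 7.2. Within a single coding exon the peaks therefore did not share a direction, though the low ones carry no test.

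The falls at ELMO1 and GNGT1 were smaller. ELMO1, a protein of engulfment and cell motility, went from 18.9, 28.1 and 50 to 14, 7.8 and 10.6 (chr7:37250810-37251122), a change of -1.04 (SE 0.29, adjusted p = 0.00388). The coding interval of the ELMO1 peak is the last one of a transcript that is not the canonical one. The ELMO1 call rested on G1 replicate 3, the highest library, and without it the change was -0.74 with an adjusted p of 0.072. GNGT1, the gamma subunit of the G protein of rod photoreceptors, went from 92.5, 104.7 and 121 to 51.9, 56.4 and 39.0 (chr7:93539567-93540716), a change of -1.004 (SE 0.23, adjusted p = 0.000264). Its coding part was 11.0% of a peak of 1150 bp, the smallest coding share among the falls named.

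The largest rise was at SOX9, a transcription factor with an HMG box that acts in cartilage, testis and glia. Its peak covers the end of the last coding exon, which encodes part of the transactivating C-terminus. The scaled counts were 17.9, 10.9 and 12 in G1 and 51.5, 62.2 and 61.6 in M-phase. The lowest M-phase library was nearly 3 times the highest G1 library, and the change was 1.63 (SE 0.27, adjusted p = 8.19e-07). The rise was not limited to this exon: the peak over the SOX9 start site, 2127 bp wide, went from 313.2, 257.8 and 277 to 738.6, 847.6 and 745.8, a change of 1.44 (SE 0.16, adjusted p = 9.57e-12). A peak between them, 1738 bp from the TSS, rose by 1.06 (SE 0.26, adjusted p = 0.000756), and the next peak after the gene changed by 0.44 (SE 0.27, adjusted p = 0.23). Per kb, the G1 means of the start-site peak, the middle peak and the last-exon peak were 133, 84.6 and 53.8, and the M-phase means were 365, 209 and 231.

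**Figure D3:**
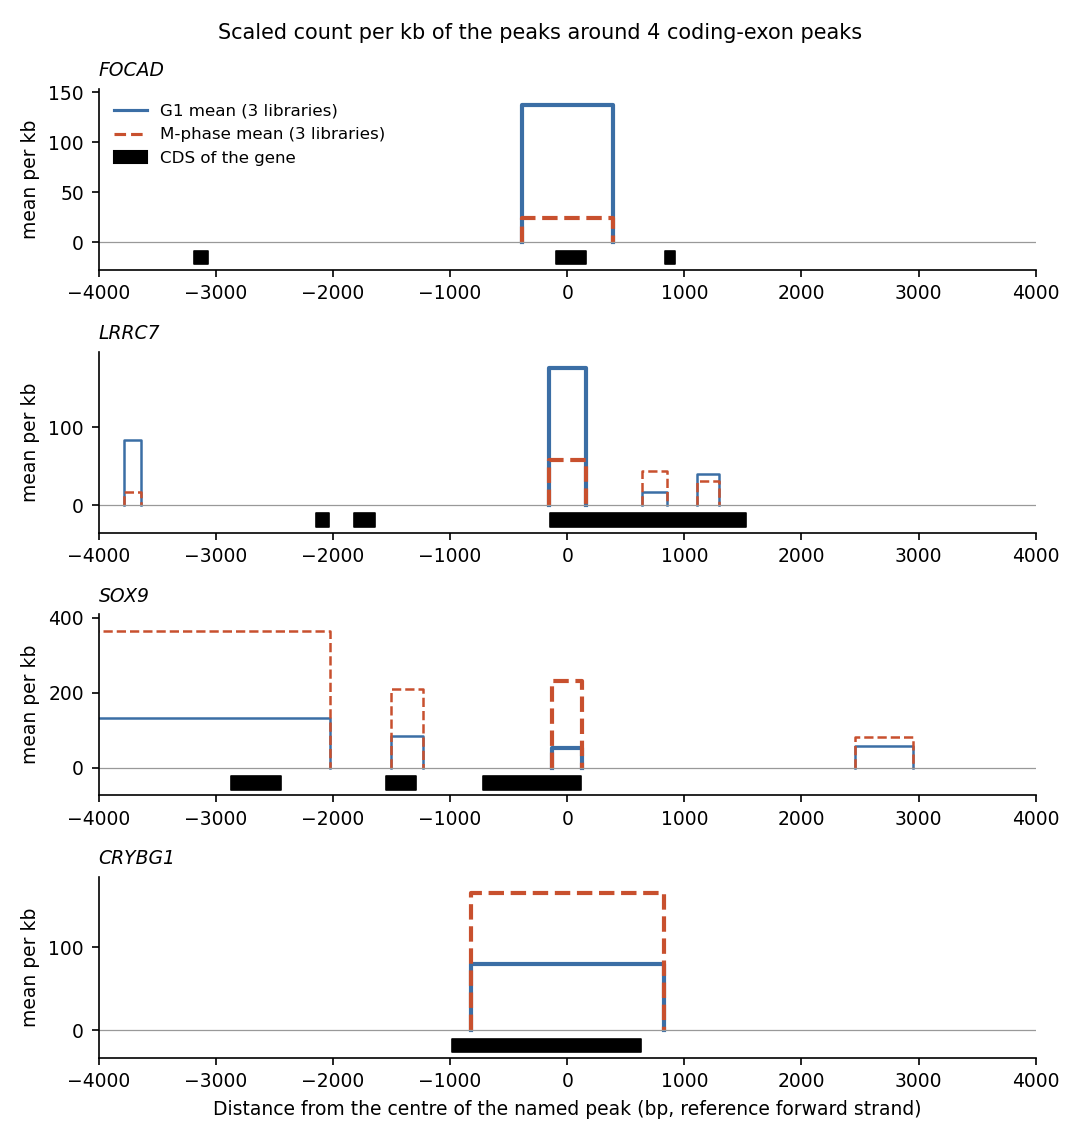
Mean scaled count per kb (y axis) of every peak within 4 kb of the centre of the coding-exon peaks of FOCAD, LRRC7, SOX9 and CRYBG1, drawn over the width of the peak against distance from that centre in bp (x axis, forward strand), for G1 (blue, solid) and M-phase (red, dashed), with the CDS of the gene in black. The FOCAD and LRRC7 peaks are lower in M-phase, while at SOX9 the start-site peak, the middle peak and the last-exon peak are all higher.

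The next rises were at ITGB5, EPB41L5 and CDC20B. ITGB5, the beta 5 subunit of integrins, had scaled counts of 14.9, 7.8 and 12 in G1 and 37.9, 23.9 and 55.8 in M-phase at its exon 3 (chr3:124577939-124578276). The phases did not overlap, as the choice of named rises required, and the change was 1.23 (SE 0.29, adjusted p = 0.000464). EPB41L5, a FERM-domain protein of cell junctions, went from 9.9, 12.5 and 26 to 36.7, 44.5 and 57.7 (chr2:120861532-120862050), a change of 1.21 (SE 0.28, adjusted p = 0.00038). The coding interval of the EPB41L5 peak is the last one of a transcript that is not the canonical one, and 34.3% of the peak was coding. CDC20B, a relative of the mitotic activator CDC20, went from 9.9, 4.7 and 19 to 36.3, 25.5 and 33.7 (chr5:54442340-54442663), a change of 1.11 (SE 0.29, adjusted p = 0.0019). The CDC20B gene is known for the microRNAs of an intron, which were not examined here.

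CRYBG1, a beta/gamma-crystallin domain protein also called AIM1, had one of the widest and highest peaks. It covered 1649 bp (chr6:106959462-106961110), 88.1% of it in a 1610-bp internal coding exon that overlaps a CpG island, 27899 bp from the nearest TSS. Its scaled counts were 171.0, 98.4 and 125 in G1 and 267.4, 246.4 and 302.2 in M-phase, a change of 1.03 (SE 0.19, adjusted p = 1.13e-05), which was 0.58 with loess. CSF2RB, the receptor subunit shared by interleukin 3, interleukin 5 and GM-CSF, went from 10.9, 14.1 and 18 to 41.6, 36.3 and 26.9 (chr22:37322002-37322329), a change of 0.94 (SE 0.28, adjusted p = 0.00694). Without M-phase replicate 1 the CSF2RB change was 0.83 with an adjusted p of 0.056, and with equal totals it was 0.69 with an adjusted p of 0.0501. AL603965.1, a protein-coding gene model on chromosome 10, went from 70.6, 60.2 and 59 to 138.4, 148.7 and 164.6 (chr10:47768756-47770497), a change of 1.15 (SE 0.21, adjusted p = 7.67e-06). Only 1.87% of the 32-mers of the AL603965.1 peak occur once in the genome, so its reads cannot be placed with certainty. The coding interval of this peak is not on the canonical transcript, and 27.7% of the peak was coding.

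**Figure D4:**
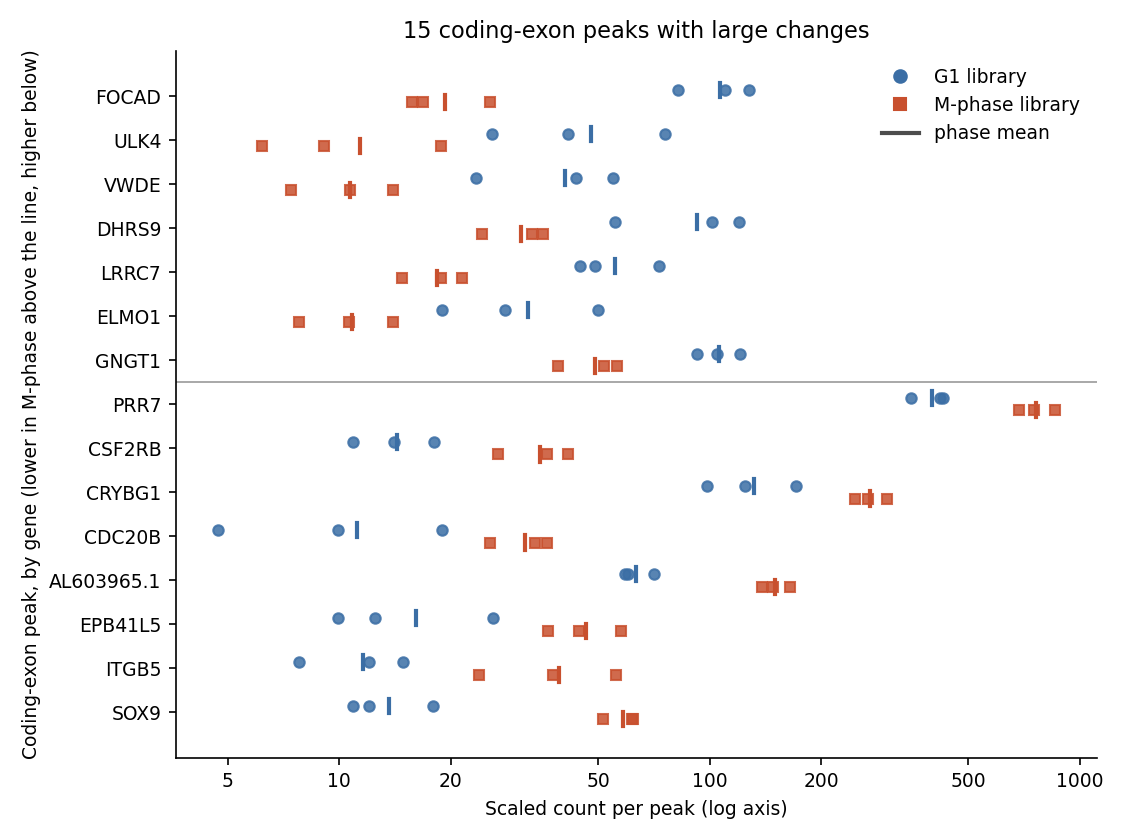
Scaled count per library (x axis, log scale) of 7 of the 8 coding-exon peaks with the largest falls (above the line) and the 8 with the largest rises (below it), by gene (y axis), for 3 G1 libraries (blue circles) and 3 M-phase libraries (red squares), with a bar at each phase mean. The phases do not overlap in any of the 15 peaks, which the rule for choosing them required.

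The highest counts were held by a few wide peaks, some of them in CpG islands. PRR7, a proline-rich transmembrane protein, led with 349.0, 427.3 and 420 in G1 and 683.4, 749.9 and 857.5 in M-phase, over 2282 bp of its first coding exon and the DNA around it (chr5:176881321-176883602). The PRR7 change was 0.92 (SE 0.16, adjusted p = 2.04e-06), but with loess it was 0.01 with an adjusted p of 0.98. RIN2, an exchange factor for Rab5, had 435.4, 406.3 and 592 and then 584.6, 521.6 and 624.1 over 3508 bp (chr20:19954671-19958178), of which 32.3% was coding. The RIN2 libraries of the phases overlapped (change 0.28, SE 0.16, adjusted p = 0.20), and its direction depended on the processing: the change was -0.61 with loess (adjusted p = 3.02e-06) and 0.44 without G1 replicate 3 (adjusted p = 0.00979). No direction is therefore given for RIN2.

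ZFPM1, the GATA cofactor FOG-1, had 176.0, 187.5 and 204 in G1 and 242.2, 264.9 and 271.4 in M-phase in its last coding exon (chr16:88599980-88601633). The ZFPM1 phases did not overlap, yet the change of 0.44 (SE 0.18) missed the threshold (adjusted p = 0.059), and without G1 replicate 3 it passed (0.49, adjusted p = 0.0165). MUC19, a gel-forming mucin, had 232.6, 251.6 and 178 and then 245.9, 248.9 and 234.3 over 8530 bp, all in one coding exon of 12253 bp (chr12:40876560-40885089). The MUC19 change was 0.15 (SE 0.18, adjusted p = 0.60), and -0.39 with loess (adjusted p = 0.044). Per kb the order was different. The mean scaled count per kb was 255 at PRR7, 150 at RIN2, 136 at ZFPM1, 122 at CRYBG1 and 27.2 at MUC19, which stood at rank 1077 of 1173 on this scale, and the median coding-exon peak had 48.2 per kb beside 43.0 for intronic peaks.

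The genes with the most coding-exon peaks encode very large proteins with repeated parts. TTN, which encodes the muscle protein titin, held 7 such peaks, MUC12 held 6 and MUC16 held 6. The latter 2 encode membrane mucins. In TTN, 4 of the 7 peaks were tested, 0 passed, also at an unadjusted limma p under 0.05, and the mean scaled counts over 6 libraries ran from 5.32 to 38.0 with changes between -0.47 and 0.27. In MUC16, 2 of the 6 were tested, 0 passed, also at an unadjusted limma p under 0.05, and the means ran from 3.43 to 12.1 with changes between -0.30 and 0.11.

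All 6 MUC12 peaks lay in a single coding exon of 14889 bp. Their mean scaled counts ran from 0.933 to 166, and 5 of them were tested. One, at chr7:100637795-100638864, fell from 137.2, 136.7 and 94 to 80.3, 65.9 and 93.8, where the lowest G1 value and the highest M-phase value nearly touched. Its change was -0.56 (SE 0.21, adjusted p = 0.0394). The call was lost without G1 replicate 1 (-0.48, adjusted p = 0.15), G1 replicate 2 (-0.48, adjusted p = 0.14), M-phase replicate 1 (-0.57, adjusted p = 0.095) or M-phase replicate 2 (-0.44, adjusted p = 0.23). Between 0% and 65.8% of the 32-mers of the MUC12 peaks occur once in the genome, and 2 of the TTN peaks had 6.56% and 6.75%, so reads of these repeats may come from other copies.

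Within genes, the change of the exon was compared with that of the introns. For 307 genes with a tested peak of each kind, limma on the difference between the mean of the coding-exon peaks and the mean of the intronic peaks called 31 genes (10.1%). The exon moved up relative to the introns in 17 (5.54%) and down in 14 (4.56%), and the median difference over the 307 genes was 0.02. In 13 of the 31 genes at least 1 coding-exon peak passed the threshold on its own, and in the other 18 none did. Only 1 intronic peak stood for the introns in 13 of the 31 and in 86 of the 307. The count rested on single libraries: without G1 replicate 2 it was 4, without G1 replicate 3 it was 14, without M-phase replicate 1 it was 20 and without M-phase replicate 3 it was 15.

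In 2 of the 3 genes with the smallest p in the upward direction, the intron had fallen and the exon had not passed the threshold. MYRFL, a relative of the myelin regulatory factor, had an intronic peak (chr12:70291451-70292172) that fell from 86.5, 125.8 and 175 to 9.9, 17.7 and 19.2. Its coding-exon peak (chr12:70273000-70273323) had 8.9, 9.4 and 25 in G1 and 10.3, 26.0 and 4.3 in M-phase, which overlapped. The MYRFL exon minus intron difference was 2.40 (adjusted p = 0.000759). NTMT2, an N-terminal methyltransferase, showed the same form. Its intronic peak went from 31.8, 46.1 and 68 to 9.5, 10.3 and 7.7, its coding-exon peak from 4.0, 9.4 and 13 to 11.5, 11.9 and 6.7, and the difference was 1.801 (adjusted p = 0.000759). Both differences compare peaks of unlike level. In G1 the coding-exon peaks averaged 14.4 at MYRFL and 8.8 at NTMT2, beside 129 and 48.6 for the intronic peaks. Near the pseudocount of 8, the coding-exon peaks could not have shown a fall as large as that of the intronic peaks.

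ADAMTS16, a secreted metalloprotease, was the exception, with a rise in the coding-exon peak. Its peak over exon 3 (chr5:5145870-5147040) went from 77.5, 55.5 and 127 to 169.3, 154.9 and 156.4, a change of 0.90 (SE 0.21, adjusted p = 0.000591), which was 0.57 with equal totals. Of its 6 intronic peaks tested, 3 fell, with changes of -0.61, -0.82 and -0.85, and none rose. Only 27.8% of the 1171-bp ADAMTS16 peak was coding, since the exon has 326 bp, so most of the region that rose is intron. The ADAMTS16 difference was 1.36 (adjusted p = 0.00936).

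In the downward direction the coding-exon peak itself fell past the threshold in 7 of the 14 genes. At least 1 intronic peak rose past it in 8 and fell past it in 2. In the upward direction the coding-exon peak rose in 6 of the 17 genes. At least 1 intronic peak fell in 13 and rose in 0. The genes were chosen by the difference, so such counts follow in part from the choice. Over all tested peaks, 4.08% of coding-exon peaks were higher and 6.69% lower, beside 4.28% and 14.4% of intronic peaks. The 3 downward genes with the smallest p were FNIP1, POP1 and GNGT1, and in each the exon fell. FNIP1, a partner of folliculin in nutrient signalling, had a peak wholly in CDS (chr5:131007961-131008250) that went from 22.9, 21.1 and 26 to 6.2, 2.9 and 3.4, a change of -1.37 (SE 0.28, adjusted p = 7.21e-05). Of its 2 intronic peaks one had a change of -0.34 (adjusted p = 0.33) and the other rose by 0.98 (adjusted p = 0.00652), and the FNIP1 difference was -1.70 (adjusted p = 0.00167). POP1, a protein of the ribonucleases P and MRP, had a coding-exon peak (chr8:99170255-99170379) that went from 18.9, 14.1 and 20 to 5.8, 4.5 and 4.8, and a difference of -1.37 (adjusted p = 0.0143). The FNIP1 and POP1 coding-exon peaks passed the filter on low values through their G1 libraries alone. Both fail the stricter alternative filter, which sets a minimum for every library. All their M-phase values lay under the pseudocount of 8, so the size of both falls depended on it. GNGT1 had 46 intronic peaks with a mean change of 0.08 against -1.004 in the coding-exon peak, a difference of -1.08 (adjusted p = 0.0155). Only 11.0% of that GNGT1 peak was coding. The intronic peaks of GNGT1 were not uniform. Single ones passed in both directions, such as changes of -0.90 (limma adjusted p = 0.000816) and 0.83 (limma adjusted p = 0.017). Among the other genes described above, the difference passed for CDC20B (1.46, adjusted p = 0.0103), ZFPM1 (0.78, adjusted p = 0.0299) and ITGB5 (1.02, adjusted p = 0.0427). It missed for ULK4 and LRRC7 (adjusted p = 0.0529 in both), RIN2 (0.089), ELMO1 (0.093), EPB41L5 (0.13), MUC16 (0.42), DHRS9 (0.87) and TTN (0.91).

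**Figure D5:**
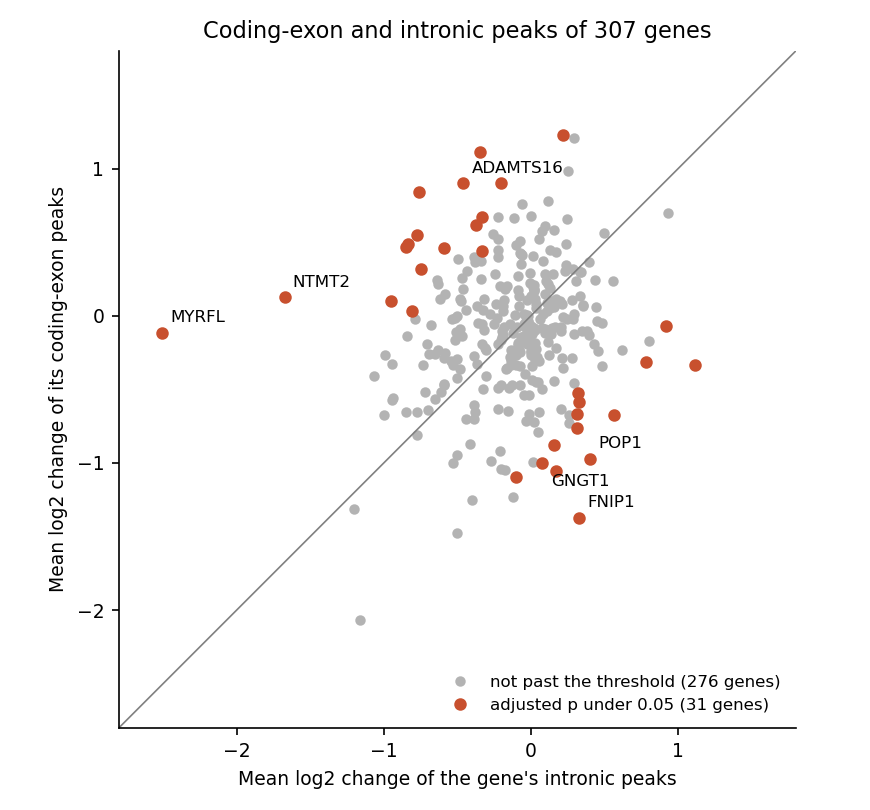
Mean log2 change of the tested coding-exon peaks of a gene (y axis) against that of its tested intronic peaks (x axis) for 307 genes, with the diagonal where both are equal. The 31 genes past the threshold (red) lie off the diagonal, 17 above and 14 below it, and the 3 genes with the smallest p in each direction are named.

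The coding-exon peaks were richer in G and C than the intronic peaks. Their median GC content was 56.9%, beside 47.7% in intronic peaks and 50.6% in all peaks, and they held a median of 2.63 CpG per 100 bp beside 0.935. A CpG island overlapped 211 of them (18.0%) and 122 of the intronic peaks (1.86%). The 211 had a median change of -0.07, with 7 higher and 6 lower of 140 tested (9.29%). The other 962 had a median of 0.03, with 18 higher and 35 lower of 473 (11.2%). Among intronic peaks the called share was 19.3% with a CpG island and 18.7% without. Below 45% GC, 25% of the coding-exon peaks tested were called (4 higher, 13 lower of 68), beside 24.6% of the intronic peaks. From 45 to 55% GC the shares were 12.5% and 17.1%, from 55 to 65% they were 7.52% and 12.8%, and at 65% and above 7.28% and 10.0%. The called share thus fell with GC content in both classes, and in the lowest range the classes had nearly the same share.

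Position in the gene went with little difference. The median change was 0.12 in first coding exons, 0.01 in internal ones, 0.01 in last ones and 0.10 in single ones, and the called share was 10.0%, 9.47%, 13.0% and 10.3%. The 156 peaks with under 50% of their bases in CDS had the higher called share, 16.3% (9 higher, 13 lower of 135), and also the higher median level, a mean scaled count of 23.0 beside 8.67 for those with at least 50% in CDS. Peaks wholly in CDS had 7 higher and 16 lower of 236 tested (9.75%). In long coding exons, with a CDS interval of at least 2 kb, 3 were higher and 8 lower of 74 tested (14.9%). The share was 10.8% over all coding-exon peaks tested and 27.3% over all peaks tested.

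Sequence motifs were searched as fixed letters on both strands of the central 200 bp. The AP-1 site TGANTCA was found in 71 coding-exon peaks (6.05%), in 11.3% of intronic peaks and in 11.8% of all peaks. The forkhead site TGTTTAC was found in 11 (0.938%), beside 3.57% and 2.85%. The Runx site TGTGGTT was in 48 (4.09%), beside 4.88% and 4.75%, the TEAD site GGAATG in 130 (11.1%), beside 12.9% and 12.2%, and the C/EBP site TTGCGCAA in 2 (0.171%), beside 0.0305% and 0.0425%. The CTCF consensus was found in 14 (1.19%), beside 0.61% and 0.937%. A match is a description of the letters only, and the classes differ in base composition.

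The calls among coding-exon peaks with a Runx site were all falls. Of 29 tested, 6 were lower and 0 higher (20.7%, beside 28.9% of intronic peaks and 35.6% of all peaks with the site), and the median change of all 48 was -0.15. The 6 were ULK4, DHRS9, CDK5RAP2 (-1.23), ITGBL1 (-1.05), TMEFF1 (-0.92) and LRRC7, named after their values were seen. In intronic peaks 46 with the site were lower and 9 higher of 190. In the LRRC7 sequence printed above, the Runx letters stand at bases 173 to 179 on the other strand. AP-1 letters stand at bases 26 to 32, outside the central 200 bp, so LRRC7 is not among the peaks counted for AP-1. Of 43 tested coding-exon peaks with an AP-1 site, 5 were higher and 7 lower (27.9%), beside 29.8% of intronic peaks and 31.1% of all peaks with that site. Of 58 with a TEAD site 2 were higher and 4 lower (10.3%), beside 24.9% and 29.9%. Of 5 with a forkhead site 0 were called, beside 27.7% and 34.1%, and the median change of all 11 was 0.27, beside -0.11 in intronic peaks. Of 9 with the CTCF consensus 0 were higher and 2 lower (22.2%), beside 14.7% and 20.7%. Of 2 with a C/EBP site 0 were higher and 1 lower. The last 3 motifs had too few tested peaks for a share to be read. In the ITGB5 sequence the AP-1 letters stand at bases 252 to 258, in the intron. They too lie outside the central 200 bp and are not counted. In the CSF2RB sequence the TEAD letters stand at bases 104 to 109 and 148 to 153 on the other strand, both in the exon. The printed FOCAD, FNIP1 and SOX9 sequences hold none of the AP-1, forkhead, Runx, TEAD and C/EBP letters. The CTCF consensus was not searched in the printed sequences.

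Gene families were described by counts and medians, with no test of a family, and are read beside the called share of 10.8% over all coding-exon peaks and 27.3% over all peaks. Genes of C2H2 zinc finger proteins, whose fingers are encoded in long last exons, held 86 peaks in 69 genes. Of 50 tested, 4 rose (ZNF805, ZNF19, ZNF727 and PRDM12, by 0.95, 0.94, 0.84 and 0.54) and 3 fell (ZNF804B, ZNF628 and ZNF316, changes of -0.87, -0.83 and -0.79), 14% in all, and the median change of the 86 was 0.10. Other sequence-specific transcription factors held 41 peaks in 36 genes, with a median change of 0.19. Of 18 tested, SOX9, TBX3 (0.85) and FOXO3B (0.72) rose and TCF7L1, a partner of beta-catenin, fell (-0.95), 22.2% in all. TBX3 is a T-box factor of limb and heart. FOXO3B is a near copy of FOXO3, and only 28.0% of the 32-mers of its peak occur once in the genome. These medians stand beside 0.02 for all coding-exon peaks.

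Cytoskeleton and motor genes held 60 peaks in 36 genes, with a median change of 0.01. Of 32 tested, EPB41L5 and the kinesin KIF13B (0.99) rose and 1 peak of the giant protein AHNAK2 fell (-0.87), in a repeated exon where 62.9% of the 32-mers occur once. These 3 are 9.38% of those tested. The lists that follow had at most 7 peaks tested, too few for a share to be read. Chromatin regulators held 10 with 5 tested, of which TET3, a 5-methylcytosine dioxygenase, fell (-0.88). Collagens and matrix genes held 15 peaks with 4 tested, of which ADAMTS16 rose. Receptor kinases held 3, all tested, of which MERTK, a receptor for apoptotic cells, rose (0.67). Cadherins and protocadherins, many of them with a large single first exon, held 17 peaks with 7 tested, of which 0 passed and 1 had an unadjusted limma p under 0.05. Single genes of these lists were named because the counts were small.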

How the data were processed

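The deposited table of accessibility in T98G cells was analysed, with 3 G1 and 3 M-phase libraries. Per the paper's methods, the authors trimmed adapters, mapped reads to hg19 with Rbowtie (reads with up to 3 locations were kept, so near-identical copies share reads), removed mitochondrial reads and, with the replicates of a phase merged, called broad macs2 peaks. The deposited signal values are reads in peaks, reduced by the authors to the depth of the smallest library, to 1 decimal (0.1). In 1 library, G1 replicate 3, the deposited values are whole counts. Scaled values were treated as normalized values, although the steps show whole reads for at least 99.89% of them in each library. The deposited table also holds the authors' own log2 comparison of the phases and its spread, which were not used. The number of other columns of per-sample values not used was 0. The chromatin fraction and input samples were not analysed here. How the runs of an M-phase replicate were joined, and whether reads were shifted for the transposase, is not given in the sources used here.

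TSS, exons and CDS came from GENCODE release 44 lifted to GRCh37. CpG islands were computed from the sequence (17 per CpG, at least 200 bp, GC of at least 50%, observed over expected above 0.6). A peak was single-copy when at least 90% of its 32-mers occurred once in the genome. Peaks were tested when at least 3 libraries had the equivalent of 10 in a library of median size and a total of at least 15. All 6 libraries entered a limma fit (3.58.1, R 4.3.3) with a trended prior variance to log2(scaled count + 8), without covariates and with Benjamini-Hochberg adjustment. edgeR 4.0.16 on the recovered reads was an alternative. Other steps used Python 3.11.15, numpy 2.4.6, pandas 2.3.3, scipy 1.17.1, numba 0.67.0 and matplotlib 3.10.9.

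In a simulation of 73121 peaks with 200 changed ones, the limma fit called 1% at 1.5-fold, 15% at 2-fold and 75.5% at 4-fold. Of 50 genes changed among 307, the exon minus intron fit called 0% at 2-fold and 96% at 4-fold. False calls numbered 0, 1 and 8 at these folds for peaks, and 0 and 3 for genes. In these simulated settings small changes were mostly missed. With 200 changed peaks the adjustment is stricter than in the data, where 27.3% of peaks were called. The data fits did call some changes under 2-fold, such as PRDM12 (0.54) and the ZFPM1 difference (0.78). The shares are therefore no detection limit for these data.

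Named peaks are the 8 largest falls and 8 largest rises among coding-exon peaks whose phases do not overlap and which have a mean of at least 20 scaled counts and an adjusted p under 0.05 (39 peaks qualified, 15 higher and 24 lower), the 5 with the highest mean, those of the 3 genes with the most such peaks, and those of the 3 genes with the smallest p of the exon minus intron difference in each direction. Of these, 1 of the 8 falls is not reported here, nor is its gene list. The members and lists were chosen with earlier results of these data known. Phases that did not overlap were found in 21.5% of all tested coding-exon peaks. The share was 31.0% of tested intronic peaks and 38.3% of all tested peaks.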

Additional observations from a re-analysis of the deposited data

How the results depend on the processing

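The G1 libraries had at most 5365024 reads in peaks, and 560 of 1173 coding-exon peaks were too low to be tested. On simulated data with 200 changed peaks of 73121, a stricter setting than the data, most 2-fold changes were missed. The alternatives were set down with the tests, except the filter on low values for the class difference, which was chosen after seeing the data.

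Against 25 higher and 41 lower coding-exon peaks, TMM gave 18 and 66, equal totals gave 12 and 107, at least 10 in every library gave 16 and 19 of 292 tested, and at least 50% of the peak in CDS gave 16 and 28 of 478 tested. Leaving out 1 library gave 15 to 29 higher and 30 to 41 lower, with 15 higher without M-phase replicate 2. edgeR on whole reads gave 22 and 36. The median change of 0.02 became -0.056 with TMM and -0.18 with equal totals. The share past 1.5-fold was 36.2% with a pseudocount of 1. The class difference of 0.03 became -0.0013 with loess, -0.00085 with the filter on low values, -0.0013 with at least 50% of the peak in CDS and -0.016 outside CpG islands, and no setting can reach an exact p under 0.1. Of the genes called for exon minus intron, 17 upward and 14 downward, at least 10 in every library left 6 and 7 of 110 genes, a pseudocount of 1 left 12 and 5, and leaving out 1 library left 3 to 13 and 1 to 11. RIN2 had -0.61 and MUC19 -0.39 with loess. Among named peaks past the threshold, other changes of value by over 1.5 times that kept the call were PRR7 (0.57) and MUC12 (-0.89) with equal totals, FNIP1 (-2.28) and POP1 (-1.62) with a pseudocount of 1, and FNIP1 (-2.46), POP1 (-1.79) and ELMO1 (-1.57) with edgeR. Where no cause is stated, the cause was not tested. Same-numbered libraries did not deviate together (r = 0.0059, -0.010 and 0.028), so the numbers do not pair the samples. With a replicate block 25 peaks were higher and 43 lower, and 14 and 12 genes were called.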

Other observations

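Some coding-exon peaks in gene copies had high counts with little change. EIF3CL, a near copy of the translation initiation factor gene EIF3C, had a peak of 1822 bp with a mean scaled count of 99.8 in G1 and 116 in M-phase (change 0.20, limma adjusted p = 0.52), and 2.23% of its 32-mers occur once in the genome. HRNR, which encodes the skin protein hornerin in tandem repeats, had a peak of 7596 bp with 189 in G1 and 191 in M-phase (change 0.01, adjusted p = 0.98), and 29.6% of its 32-mers occur once. Of 165 coding-exon peaks that were not single-copy, 5 were higher and 5 lower of 96 tested (10.4%), with a median change of 0.00. Of 1008 single-copy peaks 20 were higher and 36 lower of 517 (10.8%), with a median of 0.02. These genes were named after their values were seen.

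Per kb the highest coding-exon peak was that of EPPK1, which encodes the cytoskeletal linker epiplakin, with 289 per kb over 484 bp. The EPPK1 peak fell from a mean of 184 in G1 to 95.8 in M-phase (change -0.87, limma adjusted p = 0.00042), and 59.6% of its 32-mers occur once. The DBN1 peak, in the gene of the actin-binding protein drebrin, stood second with 281 per kb over 104 bp, and did not pass the threshold (change 0.16, adjusted p = 0.73).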
